A study of Mus musculus with 12 samples.

Results

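The vomeronasal type 2 receptors (V2Rs) are the mouse gene family whose symbols begin with Vmn2r. All genes with such a symbol in the deposited per-gene tables were taken, which gave 124 of 20409 genes, among them Vmn2r-ps130 and Vmn2r-ps159. Membership rests on the symbol, with no insertion count in the rule. The data come from ORFtag screens in mouse embryonic stem (ES) cells, in which a retroviral cassette integrates into the genome and can join a protein tag to the gene downstream of it. The cassette holds a PGK promoter, a neomycin resistance gene, an IRES, the tag and a splice donor, and was used as a mixture of 3 reading frames followed by G418 selection. The reporter cells are clonal diploid lines of a haploid ES cell line, so each screen rests on a single reporter clone.

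The 12 libraries were 2 sorted and 2 unsorted libraries from each of 3 screens. In the activator screen the TetR DNA-binding domain with a nuclear localisation signal served as tag, a MYLPF promoter with TetO sites drove GFP, and GFP-positive cells were sorted. In the repressor screen the same tag acted on a TetO reporter with a PGK promoter, and GFP-negative cells were sorted. The remaining screen looked for post-transcriptional gene regulators (PTGR) and used the λN peptide, a tag that binds boxB sites in the reporter mRNA. PTGR cells with the lowest GFP signal were sorted repeatedly, and Cre then removed the boxB sites. A last sort left out only the cells with the lowest GFP signal. Unsorted cells of each screen carried the same reporter and cassette without GFP selection. The study's methods describe the replicates of each screen as biological.

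V2Rs are class C G protein-coupled receptors with a large extracellular ligand-binding domain, and they detect peptide and protein pheromones in basal sensory neurons of the vomeronasal organ. Binding activates Gαo and opens the Trpc2 channel, and each neuron expresses a single V2R or few of them, usually with a broadly expressed partner such as Vmn2r1. Most of the genes lie in dense arrays, some of them of near-identical copies, and the family is known to be silent outside the vomeronasal organ. RNA was not measured in these libraries, so the lack of V2R expression in ES cells is background and was not tested here. The question these data can answer is how often a cassette with its own promoter landed where it could feed such genes, and whether the landings were selected by sorting.

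A tagged transcript can form only where the donor of the cassette meets a splice acceptor, so the acceptors are the sequences the counts depend on. Of 865 unsorted insertions assigned to V2R genes, 754 (87.2%) were assigned to exon 2, against 83.6% over all genes. Exon 6, the last exon of most members, took 53 (6.13%, all genes 1.33%) and exon 5 took 47 (5.43%, all genes 1.67%). Single members led both. Vmn2r3 held 37 of the exon 5 insertions, and without it exon 5 had 1.23%. Vmn2r85 held 23 of the exon 6 insertions, and without it exon 6 had 3.58%. The exon 2 acceptor kept a median of 91.9% of the coding sequence downstream and the last exon 35.6%. An insertion feeding the last exon could therefore tag at most the part of the receptor that holds its membrane-spanning segments. The acceptors that took most insertions in the 10 members with the highest counts, and those of other members discussed below, are given from the GRCm38 reference, 5′ to 3′ on the strand of the gene. Lower case is the end of the intron and capitals are the first 10 bases of the exon.
Vmn2r90 exon 2, chr17:17712022-17712051, plus strand: attttatgaaatctgtgcagGTATAAATTC
Vmn2r113 exon 2, chr17:22945302-22945331, plus strand: agcactgtaaccttttacagAACACACACT
Vmn2r111 exon 2, chr17:22572109-22572138, minus strand: aacactgtaaacttttacagAACTCAGACT
Vmn2r3 exon 5, chr3:64261464-64261493, minus strand: acctactgtgttttctgtagCTTCCAGATT
Vmn2r96 exon 2, chr17:18581697-18581726, plus strand: tttttatgctacttaaacagATATAACTTT
Vmn2r106 exon 2, chr17:20279741-20279770, minus strand: attttttgctatttacacagATATAATTTT
Vmn2r85 exon 6, chr10:130419162-130419191, minus strand: ggtttattgacatttgccagCAGATATGGA
Vmn2r107 exon 2, chr17:20355611-20355640, plus strand: tttttatgccacttacacagGTATAACTTT
Vmn2r100 exon 2, chr17:19521229-19521258, plus strand: tttttatgccacgtacacagGTATAACTTT
Vmn2r2 exon 2, chr3:64137487-64137516, minus strand: caaatgcttttcctttccagGTTTAATTTC
Vmn2r57 exon 2, chr7:41428814-41428843, minus strand: attttatgaaatctatgcagGTATAATTTT
Vmn2r57 exon 6, chr7:41400654-41400683, minus strand: tcactttcctttctaaacagATATGGATCA
Vmn2r94 exon 2, chr17:18258376-18258405, minus strand: tttctatgcgatttacacagGTATAACTTT
Vmn2r29 exon 6, chr7:7232222-7232251, minus strand: agctttcctttggaaatcagATATGGATCA

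The last of these is shown because 15 members on chromosome 7 carry exactly those 30 bases at their exon 6. Over the family, 676 acceptors gave 497 distinct sequences, and 97 of 124 members shared at least 1 acceptor sequence with another member. The exon 2 sequence aacactgtactcttttacagAAAAACAACT occurred in 10 members, of which 2 were tagged, with 5 insertions between them. All but 1 of the 676 acceptors ended in ag, the usual last bases of an intron. Reading frame was also uneven. The acceptors fed by 727 of 865 insertions (84.0%) began at an exon whose first complete codon starts after 2 bases. A further 68 insertions (7.86%) fed exons with 1 such base, 54 (6.24%) fed exons that begin with a whole codon, and 16 fed exons outside the coding sequence. The lists do not say which of the 3 frame variants an insertion carried, so in-frame fusions could not be counted.

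Most V2R genes received insertions in unselected cells, and over the whole family the share that did was lower than over all genes. At least 1 unsorted insertion within 200 kb of an assigned exon, on the strand of the gene (a sense insertion), was found for 92 of 124 members (74.2%), against 89.5% of all genes. The number per member was low, with a median of 2.5 insertions against 15 over all genes. Among tagged genes the medians were 4 and 19. A minimum of 3 insertions left 62 members (50.0%) and 78.8% of all genes. A single insertion was found for 19 members, and 24 members had at least 10. Only 4 members reached 50 insertions, and these 4 held 303 of the 865 insertions (35.0%), while the highest 10 held 457 (52.8%).

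**Figure D1:**
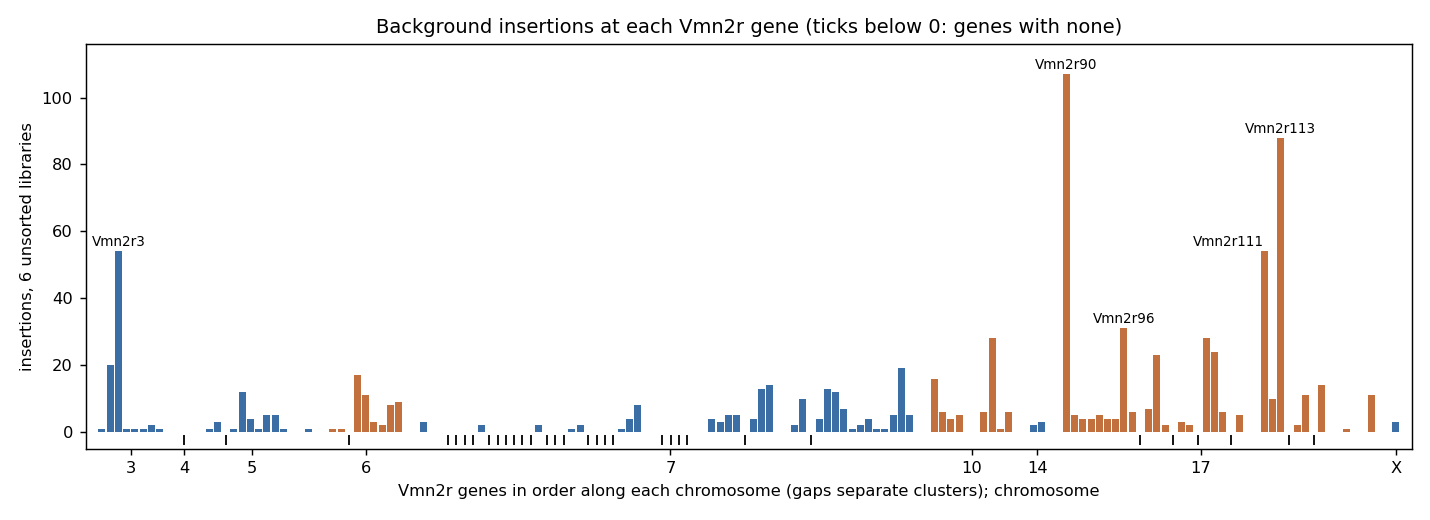
Sense insertions per V2R gene in the 6 unsorted libraries, with members in order along each chromosome on the horizontal axis, the number of insertions on the vertical axis, colours alternating between chromosomes and ticks under members with none. Counts ran from 107 at Vmn2r90 down to 0 at 32 members.

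The 10 highest counts were at receptors of chromosomes 17 and 3, apart from that of Vmn2r85 on chromosome 10, described below. They recurred between libraries. Vmn2r90 had 107 insertions, with 5 in the lowest of the 6 unsorted libraries, a median of 17.5 and 32 in the highest. Vmn2r113 had 88, from 2 to 22 with a median of 15.5. Vmn2r111 had 54, from 1 to 14 with a median of 10. All 3 had their lowest count in PTGR unsorted replicate 2, the shallowest of the unsorted libraries. Vmn2r3, like Vmn2r2 a member of the chromosome 3 array, had 54 insertions, from 1 to 15 with a median of 10. Vmn2r96 had 31 (2 to 10, median 5), Vmn2r106 28 (1 to 10, median 3.5), and Vmn2r107 24 (1 to 7, median 4). Vmn2r100 had 23 (1 to 8, median 3.5) and Vmn2r2 20 (0 to 6, median 4). Neighbours in this order overlapped in their range over libraries. At the other end of the scale, 11 members were hit in all 6 unsorted libraries and 24 in only 1.

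Depth set what could be seen. The unsorted libraries held between 54088 and 233799 sense insertions over all genes, 1022126 together, and the sorted libraries between 14705 and 60980. Per 10000 sense insertions of all genes, V2R genes took 8.46 in the unsorted libraries together (95% Wilson interval 7.92 to 9.05), and the 6 libraries lay between 7.40 and 9.49 (mean 8.33 ± 0.729, SD, n = 6). Intervals here and below account for counting error alone and leave out variation between libraries.

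Receptors with a known ligand or partner role were tagged unevenly. Vmn2r26, which responds to peptides presented by MHC class I, had 8 unsorted insertions, with 2 and 0 in the PTGR, 1 and 1 in the activator, and 1 and 3 in the repressor libraries. Vmn2r115, the receptor for the juvenile pheromone ESP22, had 11, with 3 and 2, 2 and 0, and 1 and 3 in the same order. Vmn2r88, which binds hemoglobin, had 2, in PTGR replicate 1 and activator replicate 2. Vmn2r1, the broadly expressed partner, had 1, in repressor replicate 2. The PTGR sorted libraries had 0 and 1 at Vmn2r88 and 2 and 0 at Vmn2r1. Vmn2r116, the receptor for the male pheromone ESP1, had none in any of the 12 libraries, and its assignment region had a single reversed insertion in the unsorted libraries. Vmn2r115 and Vmn2r116 are neighbours, and their counts therefore also describe which of adjacent copies an insertion was assigned to. Of the 11 Vmn2r115 insertions, 9 lay between chr17:23191948 and chr17:23193416, a median of 0.422 kb from the start of Zfp40 and 152 kb from exon 2 of the receptor.

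Counts differed between chromosomes and arrays. Chromosome 7 holds 52 members, of which 29 were tagged (55.8%), with 157 insertions, while chromosome 17 holds 32, of which 26 were tagged (81.2%), with 461 insertions. All 8 members on chromosome 3 (81 insertions) and all 8 on chromosome 10 (72 insertions) were tagged, as were 8 of 9 on chromosome 6 and 10 of 11 on chromosome 5. Both members on chromosome 14 were tagged, the single member on chromosome X had 3 insertions and the single member on chromosome 4 none. Members whose starts lay under 1 Mb apart formed 18 clusters. The cluster at chr17:22544504-23479699, which holds Vmn2r111, Vmn2r113, Vmn2r115 and Vmn2r116, had 145 insertions per Mb of assignment region, meaning the stretch of genome from which an insertion would be assigned to a member. The largest cluster, 24 genes at chr7:7231327-10176573, had 20 insertions at 7 genes, or 8.36 per Mb. Another chromosome 7 cluster, 15 genes at chr7:84935565-87044941, had 86 insertions at 14 genes, so low counts were not shared by all arrays of that chromosome.

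The density of insertions was low over the family, and so was the share of sequence to which a read can be placed. The assignment regions of the 124 members covered 15.2 Mb and held 56.9 insertions per Mb, against 409 per Mb over the regions of all genes. Of the bases in V2R regions, 53.4% began a 31-base sequence that occurs once in the reference genome, against 83.8% in the regions of all genes. The cluster of 24 genes on chromosome 7 had 11.99%. The authors removed reads of low mapping quality, and the part that repeats had in the low counts was not tested. Per Mb of unique sequence the densities were 106 and 488, so V2R genes had the lower density on this scale too. The regions of tagged members, pooled, had a unique share of 59.7% and a median length of 129 kb, and those of untagged members 24.1% and 77.4 kb.

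Genes of equal uniqueness were compared by dividing all genes at steps of 20% in the unique share. At 0 to 20% unique sequence the 27 members had 5.28 insertions per Mb, against 19.6 over all genes. At 40 to 60% the 26 members had 44.5 against 149, and at 60 to 80% the 53 members had 71.7 against 195. Above 80% the 10 members had 145 against 468, and 65.8 without Vmn2r90. In each of the 5 bins V2R genes had the lower density. The share of genes tagged had no such order. At 40 to 60% unique sequence 88.5% of members were tagged against 77.1% of all genes, and at 60 to 80% it was 90.6% against 83.8%, with medians of 4 insertions against 3 and 4 against 5. In the remaining bins fewer members were tagged, 29.6% against 35.3% at 0 to 20%, 62.5% against 69.9% at 20 to 40%, and 8 of 10 against 93.6% above 80%. Single members did reach general levels, and 4 members exceeded the overall density of all genes.

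**Figure D2:**
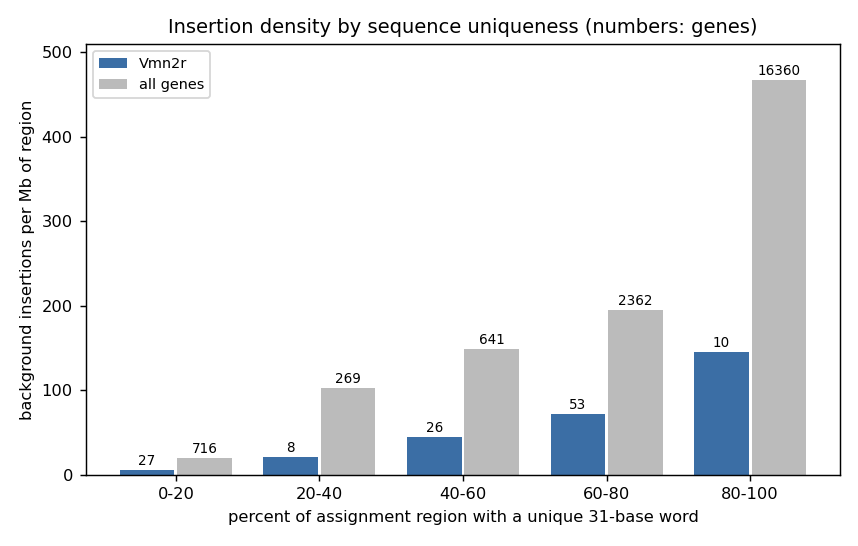
Density of unsorted sense insertions (insertions per Mb of assignment region) for V2R genes (blue bars) and all genes (grey bars) in bins of the percent of unique sequence in the region, with the number of genes above each bar. V2R genes lay lower in each bin, at 5.28 against 19.6 per Mb in the lowest and 145 against 468 per Mb in the highest.

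Other families of chemosensory receptors were also hit less than genes in general. The Vmn1r genes, which encode the other class of vomeronasal receptors, had 101 of 139 members tagged (72.7%), a median of 2 insertions and 73.7 per Mb at 59.1% unique sequence. Olfactory receptor genes had 492 of 1026 tagged (48.0%), a median of 0 and 96.5 per Mb at 72.4% unique sequence. The 22 other class C receptor genes, such as those for metabotropic glutamate and GABA-B receptors, had 19 tagged, a median of 41 and 262 per Mb. Of 15 genes for V2R signalling and partner proteins 11 were tagged, with a median of 4, and of 37 genes for peptide and protein ligands 22 were tagged, with a median of 1. These lists differ in region length and repeat content, and no difference between them was tested.

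V2R insertions lay further from the exon they were assigned to than insertions at other genes. The median distance was 66.3 kb, against 31.8 kb over all genes, and 10.52% lay within 5 kb against 18.1%. Within 50 kb lay 39.8% of V2R insertions and 62.1% of all. With no limit on distance, 587 of 1452 unsorted insertions assigned to V2R genes (40.4%) lay beyond 200 kb, against 26.1% over all genes. Only 136 of the 865 (15.7%) lay inside the gene they were assigned to, against 29.3% over all genes, and 530 (61.3%) lay outside any annotated gene, against 45.3%. Another 105 (12.1%) lay inside a different protein-coding gene and 94 (10.9%) inside a gene of another kind only. Most cassettes assigned to a V2R gene were thus outside annotated genes and far from the exon.

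**Figure D3:**
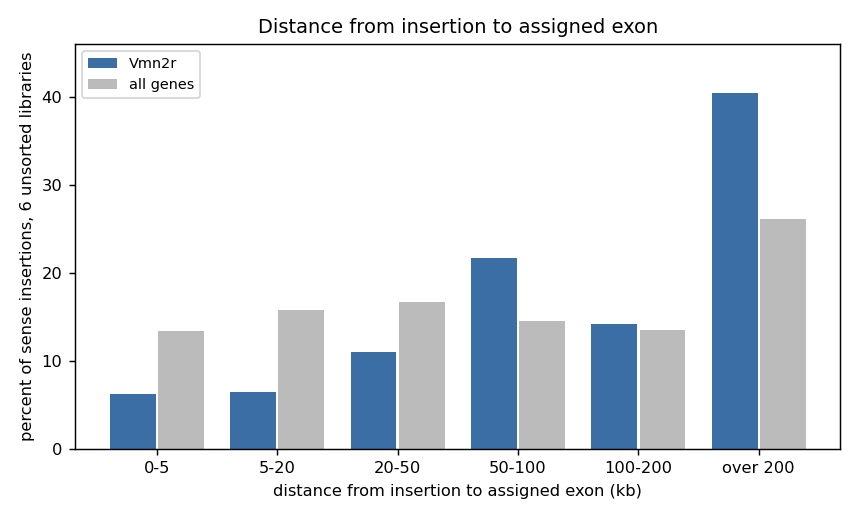
Share of unsorted sense insertions (percent) by distance to the assigned exon, for V2R genes (blue bars) and all genes (grey bars) with no limit on distance. V2R genes had 40.4% beyond 200 kb, against 26.1% for all genes, and 6.27% against 13.4% within 5 kb.

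At the members with high counts, many insertions lay in short stretches, at distinct positions. At Vmn2r90, 45 of 107 insertions lay at chr17:17624922-17629652, at 44 positions in all 6 unsorted libraries, and a median of 84.7 kb from exon 2. This stretch spans the start of Lnpep, an aminopeptidase gene on the opposite strand, from which these insertions had a median distance of 2.31 kb. At Vmn2r113, 52 of 88 insertions lay at chr17:22874638-22879023, in no annotated gene and 68.9 kb from exon 2. At Vmn2r111, 24 of 54 lay at chr17:22742630-22746944 in the long noncoding RNA gene Gm5493, 173 kb from exon 2. At Vmn2r3 the stretch was inside the receptor gene itself, where 33 of 54 insertions lay at chr3:64263968-64268621, 4.83 kb from exon 5. Vmn2r106 and Vmn2r107 are transcribed away from each other, and the same stretch fed both. There 19 of 28 Vmn2r106 insertions lay at chr17:20303978-20308497 on the minus strand and 16 of 24 Vmn2r107 insertions at chr17:20303225-20307981 on the plus strand. At Vmn2r96, 20 of 31 lay in 1 window 61.6 kb away in no annotated gene, and at Vmn2r100, 18 of 23 lay in the noncoding RNA gene 4930549P19Rik. Windows of 5 kb were placed where they held most insertions, so these counts describe the peaks and were not tested. Of 853 distinct unsorted positions assigned to the family, 841 occurred in 1 library and 12 in 2. Some of those 12 lay in the Vmn2r85 repeat described in the next paragraph. Over all 12 libraries, 976 of 1004 positions occurred in 1 library, 27 in 2 and 1 in 3 or more. Some of these were shared by a sorted and an unsorted library. The share over all genes is not given, so these counts are not read as a trait of the family.

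Vmn2r85 on chromosome 10 stood out in its pattern between libraries. It had 28 insertions, with 4 and 10 in PTGR unsorted replicates 1 and 2, 1 and 3 in the activator and 3 and 7 in the repressor libraries. The 10 in the shallow PTGR replicate 2 gave a share of 1.85 per 10000, against at most 0.396 in the other 5. Of those 10, 9 lay within 21 bp at chr10:130420807-130420827, inside the gene and upstream of exon 6. The reference there is a TA repeat, shown for the minus strand at chr10:130420802-130420831.
Vmn2r85 repeat: tatatatatatatatatatatatatatata
When positions at most 5 bp apart in a library were counted once, Vmn2r85 had 17 insertions, 2 of them in that library, while 92 members were still tagged and the family share was 8.52 per 10000. Over the family, 42 of 865 insertions (4.86%) lay that close to another in the same library, against 6.79% over all genes. In PTGR unsorted replicate 2 they were 27.5%, against 6.93%.

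Orientation gave a measured background, since a cassette on the opposite strand cannot splice into the gene. Assigning each insertion with its strand reversed gave 905 unsorted insertions at V2R genes, against 865 with the strand as mapped. The sense share was 48.9% (95% Wilson interval 46.5 to 51.2), against 50.2% over all genes, and lay between 44.7% and 55.6% in the 6 libraries. The interval covers the value over all genes. Both orientations were found for 78 members, sense only for 14, reversed only for 14 and neither for 18. Across the 124 members, log2(insertions + 1) in the 2 orientations had a Pearson's r of 0.870, a description over genes that share libraries, region length and repeat content. Vmn2r90 and Vmn2r113 had 105 reversed insertions each, and Vmn2r111 had 45.

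In the activator screen the sorted replicates moved in opposite directions. They had 12.1 and 3.40 per 10000 (21 and 5 insertions), on both sides of the 2 unsorted libraries of that screen, which had 8.84 and 9.49. The reversed assignment gave 13.3 and 4.52 in the same sorted libraries, so both orientations were high in replicate 1 and low in replicate 2. Together the sorted libraries had 8.10 in sense (95% Wilson interval 5.53 to 11.9), a log2 ratio to the 6 unsorted libraries of -0.06. The interval covers the unsorted value of 8.46. The sorted sum of 26 stood beside 27.2 expected from the unsorted share of each member and the sorted depth. When the insertions at genes called enriched in the activator screen were left out of both arms, the log2 ratio was 0.52.

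The 2 repressor sorted libraries had 4.94 and 5.26 per 10000 (11 and 8 insertions), both under the 7.40 of the lowest unsorted library. Together they had 5.07 (3.25 to 7.92), a log2 ratio of -0.74, with 19 insertions against 31.7 expected, and the interval lies below the unsorted value. When the insertions at genes called enriched in that screen were left out of both arms, the log2 ratio was -0.071. With no limit on distance it was -0.026. The 2 PTGR sorted libraries had 11.5 and 9.05 (70 and 53 insertions), against 8.00 and 7.40 in the unsorted libraries of that screen. Together they had 10.29 (8.63 to 12.3), a log2 ratio of 0.28, with 123 insertions against 101 expected. That interval lies above the unsorted value of 8.46, while the lower of the 2 libraries lay below the highest unsorted library. The reversed assignment, which cannot yield a fusion, gave -0.044 against the 6 unsorted libraries. Against the unsorted libraries of the PTGR screen alone the reversed share was also higher after sorting, at 8.67 and 7.86 per 10000. With the insertions at genes called enriched in the PTGR screen left out of both arms, the sense log2 ratio was 0.35. No p is given for these shares, which are sums over the family.

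**Figure D4:**
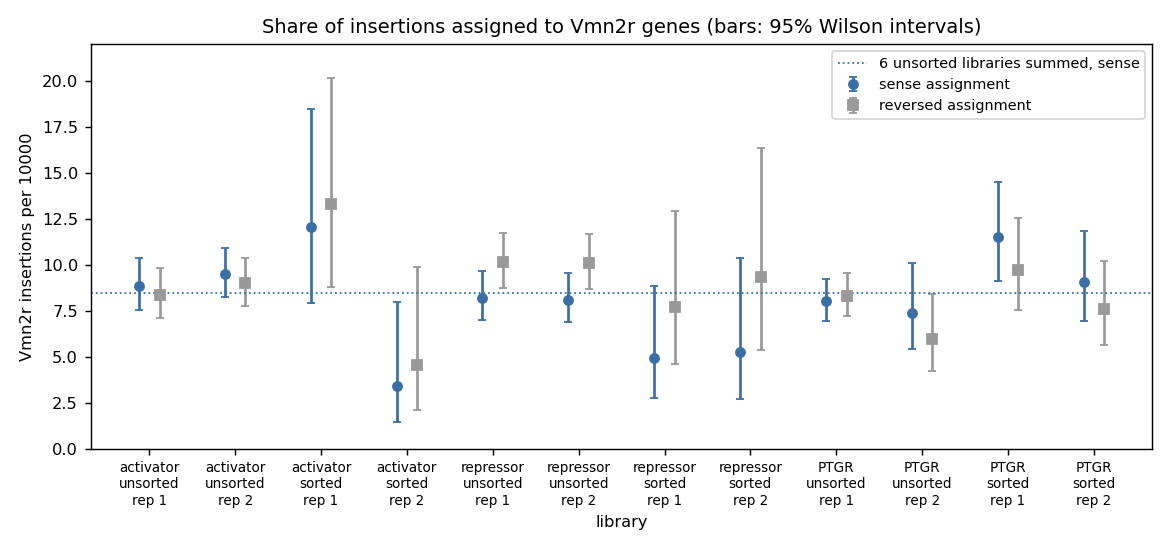
Share of V2R insertions per 10000 sense insertions in each of the 12 libraries (blue circles), and the same for reversed insertions (grey squares), with 95% Wilson intervals and a dotted line at the sense share of the unsorted libraries together. In sense, the 6 unsorted libraries lie between 7.40 and 9.49, the activator sorted libraries at 12.1 and 3.40, the repressor sorted libraries at 4.94 and 5.26 and the PTGR sorted libraries at 11.5 and 9.05.

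For single members, a one-sided Fisher's exact test compared both sorted libraries summed with the 6 unsorted libraries summed. A gene was tested where it had at least 3 sorted insertions, and called at a Benjamini-Hochberg adjusted p under 0.001 over all tested genes where the log2 odds ratio was 1 or more. In the activator screen 106 members had no sorted insertion, 2 could be tested and none was called, against 4.64% of all tested genes. Of the 2, 1 had an unadjusted p under 0.05. Vmn2r94 had 2 and 1 sorted insertions against 5 unsorted ones, which were spread 1, 0, 1, 1, 1 and 1 over the libraries. Its log2 odds ratio was 4.26 ± 1.05 (SE, counting error), with an adjusted p of 0.0265 in the exact test, which misses the threshold. With no limit on distance Vmn2r94 had 8 sorted and 111 unsorted insertions and a log2 odds ratio of 1.30. Vmn2r111 had 3 and 1 sorted against 54 unsorted insertions (log2 odds ratio 1.24, adjusted p 0.805, exact test). Vmn2r68 had 1 position, chr7:85387921, that was found in 3 libraries, activator sorted replicate 1 and both activator unsorted replicates.

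In the repressor screen 114 members had no sorted insertion, 2 were tested and 1, Vmn2r57, was called, against 8.18% of all tested genes. Vmn2r57 (chr7:41395945-41448696, minus strand) had 2 and 3 sorted insertions in the repressor screen, against 4 in the 6 unsorted libraries, which held 0, 0, 2, 0, 1 and 1. The number expected from the unsorted share was 0.147. Its log2 odds ratio was 5.09 ± 0.968 (SE, counting error), and Fisher's exact test gave an adjusted p of 8.10e-05 (3.60e-05 to 0.269 over 19 alternatives). Both sorted libraries exceeded their expected number. It had none in the activator sorted libraries and 1 and 0 in the PTGR sorted libraries.

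The 5 sorted insertions of Vmn2r57 lay at only 4 positions. Of these positions, 3, at chr7:41405649, chr7:41405854 and chr7:41405973, were inside the gene, 4985 to 5309 bp from the last exon. The insertion lists number this exon 7, and its acceptor is given above as exon 6, its number in the coding transcript of 6 exons. The remaining position, chr7:41462567, lay 33743 bp from exon 2 and was listed in both sorted replicates. The position chr7:41405649 was also listed in activator unsorted replicate 1, and 3 of the 4 unsorted insertions lay in the same stretch before that last exon. With each position counted once over both sorted replicates, Vmn2r57 had 4 insertions and passed at an adjusted p of 0.000675 (Fisher's exact test).

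The call for Vmn2r57 was lost in each fit limited to the libraries of the repressor screen, with or without the spread between replicates. edgeR's quasi-likelihood test of the 2 sorted against the 2 unsorted libraries of the repressor screen gave a log2 fold change of 4.29 and an adjusted p of 0.0535, or 0.269 with the replicate number as a block. DESeq2 gave 4.89 and an adjusted p of 0.00249. With the background limited to the repressor unsorted libraries, Fisher's exact test gave 4.55 for the log2 odds ratio at an adjusted p of 0.00189. Without repressor sorted replicate 2, or with sorted positions shared with another library left out, fewer than 3 sorted insertions remained and the gene was not tested. The direction was upward in each of these fits, with log2 values from 4.29 to 5.82 over the alternatives. The other tested member, Vmn2r90, had 2 and 1 sorted insertions where 3.92 were expected (log2 odds ratio -0.39).

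The PTGR screen was the deepest after sorting. Of the 124 members 69 had no sorted insertion, 13 were tested and none was called, against 0.666% of all tested genes, and none had an unadjusted p under 0.05. Vmn2r113 had 4 and 9 sorted insertions where 10.29 were expected, a log2 odds ratio of 0.34. Vmn2r90 had 6 and 7 where 12.5 were expected (0.05). Vmn2r3 had 4 and 7 where 6.32 were expected, a log2 odds ratio of 0.80 ± 0.477 (SE; adjusted p 0.505, Fisher's exact test). These 3 were the members with the most sorted insertions in this screen, and each was among the 4 with the most unsorted ones. Vmn2r100 had 5 and 0 sorted insertions against 23 unsorted (0.89), and Vmn2r111 had 2 and 2 against 54 (-0.66). Of 8 members with 3 sorted insertions, the 5 with the highest log2 odds ratios were Vmn2r99 (1.87), Vmn2r27 (1.51), Vmn2r126 (0.87), Vmn2r22 (0.59) and Vmn2r78 (0.43), on 7, 9, 14, 17 and 19 unsorted insertions.

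**Figure D5:**
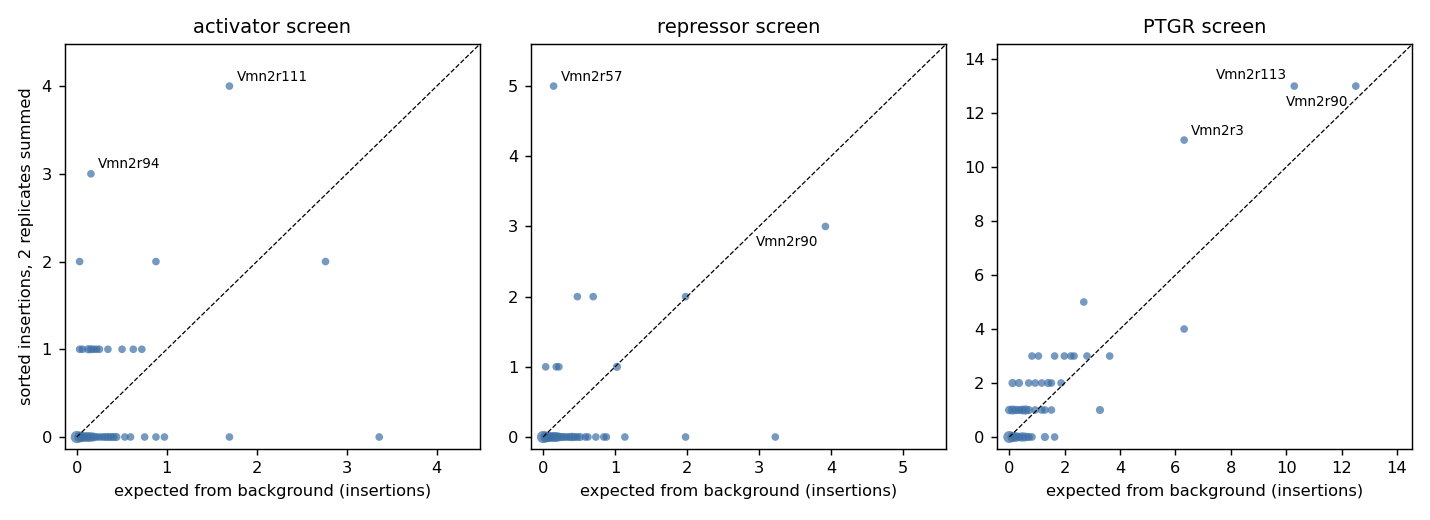
Sorted insertions of each V2R gene against the number expected from its unsorted share, in the activator, repressor and PTGR screens (1 point a gene, both axes in insertions, dashed line where they are equal). Vmn2r57 in the repressor screen, with 5 insertions where 0.147 were expected, is the called member, and in the PTGR screen Vmn2r113 and Vmn2r90 had 13 each where 10.29 and 12.5 were expected.

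The counts limited what could be called. To pass, a member would have needed a median of 4 (activator), 4 (repressor) and 7.5 (PTGR) sorted insertions. Loss of a member after sorting was not detectable at this depth. No member was called depleted in any screen (one-sided Fisher's exact test, log2 odds ratio of at most -1), against 0% of all genes in the activator screen and 0.0547% in each of the other screens. In the activator and repressor screens 1 member each had an unadjusted p under 0.05 for depletion, and in the PTGR screen none. A gene with no sorted insertion would have needed 541, 402 and 135 unsorted insertions in the activator, repressor and PTGR screens for such a call, more than the 107 of Vmn2r90. By edgeR no member passed in any screen, among 40 (activator), 32 (repressor) and 32 (PTGR) members that entered the fit. DESeq2 gave an adjusted p to only 5, 5 and 0 of these, and none of them passed. Of all tested genes, edgeR called 0.745% (activator), 1.06% (repressor) and 0.209% (PTGR) as enriched without the block and 0.647%, 1.03% and 0.231% with it, and DESeq2 called 2.05%, 3.29% and 0.981%. At an unadjusted p under 0.05, edgeR without the block gave 2 members up and 1 down in the activator, 1 and 1 in the repressor and 0 and 1 in the PTGR screen. For this and the other counts at an unadjusted p under 0.05, the share of all tested genes is not given. These counts are therefore not read as a result about the family. A count of 0 over both sorted libraries allows up to 0.935, 0.801 and 0.251 insertions per 10000 in the 3 screens.

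With the strand reversed, another V2R gene passed the same test in the repressor screen. Vmn2r63 had 4 and 2 reversed sorted insertions against 15 unsorted ones, with 3.71 as log2 odds ratio and 0.000475 as adjusted p (Fisher's exact test), where 5.61% of all tested genes were called. No member passed with the strand reversed in the activator screen (3.14% of all tested genes) or the PTGR screen (0.5%). With no limit on distance it had 24 reversed insertions in the repressor sorted libraries. On the mapped strand 14 of these were assigned to Zfp936, a zinc finger gene, and 10 to Siglecf. Zfp936 itself was called in the repressor screen, with 14 sorted and 62 unsorted insertions and a log2 odds ratio of 2.62, while Siglecf was not (0.53). These genes, and those of the next paragraph, are no V2R genes and were chosen after their values were seen.

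Insertions beyond 200 kb were most numerous at a few members. Over all 12 libraries Vmn2r126 had 142 sense insertions from beyond 200 kb, Vmn2r94 126, Vmn2r121 110, Vmn2r63 84 and Vmn2r90 72. The repressor sorted libraries held 11 of those at Vmn2r126, but 134 when the strand was reversed, or 29.3 per 10000 listed insertions against 1.44 in the unsorted libraries. Including the few nearer ones, 136 reversed insertions there were assigned on the mapped strand to Gm17067 (109), Zfp975 (23), Zfp976 (2) and Gm2381 (2). Gm17067 was called in the repressor screen with 109 sorted and 37 unsorted insertions (log2 odds ratio 6.33), as was Zfp975 with 23 and 81 (2.95). The reversed excess at Vmn2r126 was thus made of insertions that, read on their own strand, lay upstream of those neighbours.

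Related receptors and the genes that act with V2Rs were compared in the same way, though Trpc2 was not among the signalling genes compared. No gene was called among the other class C receptors, where 5, 5 and 12 were tested in the activator, repressor and PTGR screens, with 34, 28 and 170 sorted insertions where 47.0, 54.9 and 175 were expected. No Vmn1r gene was called, with 0, 2 and 11 tested in the same order. No V2R signalling or partner gene (2, 1 and 3 tested) or ligand gene (1, 1 and 3 tested) was called. Of all tested genes 4.64%, 8.18% and 0.666% were called, so few calls could occur in lists this small. Among olfactory receptor genes 6, 11 and 62 were tested and 1 was called, Olfr130 in the repressor screen. It had 151 and 109 sorted insertions against 118 unsorted ones, for a log2 odds ratio of 5.92 (adjusted p 1.50e-277, Fisher's exact test). Its reversed assignment had 4 sorted and 121 unsorted insertions. Olfr130 exceeded every V2R gene in sorted insertions in that screen, where the highest V2R count was 5.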

How the data were processed

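Inverse PCR and sequencing gave the insertion sites of 12 libraries. Per the labels and the study's methods, the authors trimmed reads (Trim Galore 0.6.0, per the submitters' processing notes), aligned them to mm10 with Bowtie2 and filtered them with SAMtools 1.9. They gave an insertion the closest exon downstream of it in a protein-coding GENCODE transcript, first exons excepted. The authors deposited insertion lists, with the strand as mapped or reversed, and per-gene tables with pooled insertion counts. The tables' odds ratios, adjusted p-values and hit calls were not used. Here each distinct position in a library counted once, to a maximum distance of 200 kb, for the 20409 genes of the tables. Pooled background counts obtained in this way equalled the deposited ones for 124 of 124 members, as did the sorted counts of the activator and repressor screens. PTGR sorted counts were equal for 120 members, with 123 insertions here and 127 in the deposited table.

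Replicates were summed and compared by Fisher's exact test (one-sided) as in the study. The alternatives were edgeR 4.0.16 (robust quasi-likelihood, TMM) and DESeq2 1.42.0 under R 4.3.3, both on insertion counts, with other distances, backgrounds, minimum counts and thresholds. Scripts ran under Python 3.11.15 with scipy 1.17.1 and were tested on simulated data. Gene positions and acceptors are from GENCODE vM21 on GRCm38, which is not the authors' release. With it all 1033 member insertions were given the listed gene and distance, while exon numbers can differ between transcripts. Over all genes 93.6% of insertions were given the listed gene and distance, so the densities of all genes rest on regions that match less well. Unique sequence was counted as 31-base sequences sampled every 100 bp.

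Named members were the 10 with the most unsorted insertions, up to 10 per screen with at least 3 sorted insertions (ties broken by log2 odds ratio), those called, 5 with a known ligand or partner role, and those with a position in 3 libraries. The rule for members uses symbols alone, but the family, the lists and the tests were chosen with earlier results of these data known.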

Additional observations from a re-analysis of the deposited data

Results flagged for a closer look

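In 3 of 36 comparisons the 6 unsorted libraries had a library far from the others, where chance gives about 1 in 20 (5%). The share of Vmn2r85 was 1.85 per 10000 in PTGR unsorted replicate 2, against 0.396 in the next highest library, and the share of its cluster was 1.85 against 0.509 in the next, since all its cluster's insertions in that library were at Vmn2r85. The share of Vmn2r107 was 0.399 in activator unsorted replicate 1, against 0.241 in the next. Reversed insertions, which lie outside the sense comparison, gave 2 further results. From beyond 200 kb, 134 reversed insertions were assigned to Vmn2r126 in the repressor sorted libraries (29.3 per 10000 listed insertions) against 200 in the unsorted libraries (1.44 per 10000). Within 200 kb, 6 reversed insertions were assigned to Vmn2r63 in the repressor sorted libraries (1.94 per 10000) against 15 in the unsorted libraries (0.148 per 10000). The causes were not tested.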

How the results depend on the processing

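The share of unsorted insertions at V2R genes was 5.42 per 10000 with a limit of 50 kb and 10.504 with none. Their density was 43.3 per Mb at 50 kb and 106 per Mb of unique sequence. In the activator screen 1 of 2 tested members, Vmn2r94, was called at an adjusted p under 0.05, on 3 sorted and 5 unsorted insertions. The share of all tested genes called at that threshold is not given, so this call is not read as a result about the family. In the repressor screen 0 members were called against the background of the same screen, by edgeR without and with a replicate block, by DESeq2, and with shared sorted positions left out. The reversed assignment also gave 1 call there, at Vmn2r63 and not Vmn2r57. The repressor log2 ratio was -0.48 at 50 kb, -0.026 with no limit, -0.092 with the strand reversed, -0.071 without called genes and -0.44 without shared positions. The PTGR ratio was -0.044 with the strand reversed. The causes were not tested.

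Leaving out each replicate in turn gave 83 to 92 tagged members, a share of 8.20 to 8.60, a density of 55.1 to 57.8, a sense share of 48.1% to 49.8%, log2 ratios of -1.32 to 0.51 (activator), -0.78 to -0.69 (repressor) and 0.10 to 0.44 (PTGR), and 0 to 1 members called in the repressor screen. The activator ratio was -1.32 without sorted replicate 1, so its sign rests on a single library, and it was 0.52 without called genes.

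Replicate numbers were not used to pair samples in the main tests. By the study's methods, unsorted cells were set aside from the transduced cells and the rest were sorted, so a pairing is possible. For each gene, the log2 share of insertions in a library was taken as its deviation from the mean of its arm. Between same-numbered sorted and unsorted libraries these deviations had correlations of 0.0451, 0.00569 and 0.227 in the activator, repressor and PTGR screens. They covered 5260, 4922 and 5411 genes. Such deviations leave out the level common to both replicates, and the values do not decide the question. In the PTGR screen, each V2R position shared by a sorted and an unsorted library of that screen joined replicates of the same number. At Vmn2r111, for example, PTGR sorted and unsorted replicates 1 shared chr17:22746944, and PTGR sorted and unsorted replicates 2 shared chr17:22737954. In the repressor screen, chr3:64268621 at Vmn2r3 was shared by sorted replicate 1 and unsorted replicate 2. Pairing was not tested on these positions. With the replicate block edgeR called 0 members in each screen. Over all genes Fisher's exact test called 132, 192 and 62 in the activator, repressor and PTGR screens, edgeR 99, 136 and 29 without and 86, 133 and 32 with the block, and DESeq2 114, 169 and 20. Positions counted once over both sorted replicates, and positions at most 5 bp apart counted once, were added after the data were seen.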
